A study of Mus musculus with 10 samples.

Results

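The 3 microRNA clusters described here, all of mouse embryonic stem (ES) cells, were followed through differentiation by their histone marks: the miR-290 cluster, the miR-302 cluster, which also holds miR-367, and the miR-183 cluster, which also holds miR-96 and miR-182. Each was taken as a fixed window of the mm9 genome, counted from 1: chr7:3212001-3224000 for miR-290, chr3:127240001-127256000 for miR-302 and chr6:30110001-30130000 for miR-183. The windows hold 6, 8 and 10 bins of 2 kb, which makes 24 of the 1239090 bins with a read in any library. The windows were chosen by the H3K4me3 and H3K27me3 read levels of these same libraries, so all their levels and ratios are a description and carry no p-value. Reads were placed by the midpoint of the deposited interval, and levels are in RPM, reads per 1e6 autosomal reads.

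Chromatin was precipitated for H3K4me3, a mark of active promoters, or for H3K27me3, the Polycomb mark of silent chromatin. XT67E1 (strain C3H/Pgk*129 in the labels) was profiled for both marks in 3 states: 10-day embryoid bodies (EBs, aggregates grown once LIF is removed), cells given atRA (retinoic acid) for 4 days, and undifferentiated cells kept in serum with LIF. LF2 and E14 (strain 129/Ola in the labels) were profiled for H3K27me3 as 10-day EBs and undifferentiated. As background, the first pair of lines is female and E14 is male. There is 1 library for each line, state and mark, 10 in all, so no difference has a replicate check. The H3K4me3 libraries hold 2252395 reads each, those of H3K27me3 8380007 in XT67E1 and 4531733 in LF2 and E14. Bracketed ranges are exact conditional binomial 95% intervals and cover counting error only. EBs are mixtures, and more marked cells cannot be told apart from more mark per cell. No annotation of mm9 was used here, so the cultures were not checked against marker genes.

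MicroRNAs are cut from hairpins within longer transcripts, and the hairpins of a cluster often share a transcript. A mature microRNA pairs with its target mRNAs mainly through its seed, bases 2 to 8. The miR-290 cluster is a main source of microRNAs in mouse ES cells and is known for speeding the G1 to S transition by repressing cell cycle inhibitors. The miR-302 cluster is known from pluripotent cells, including the early epiblast. The miR-183 cluster is known from sensory cells of the eye and ear.

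RefSeq (GRCm38.p6) listed all 17 genes looked for, 9 of the miR-290, 5 of the miR-302 and 3 of the miR-183 cluster, whose hairpins span 2.22, 0.58 and 3.82 kb. The miR-302 hairpins lie inside Larp7 but on the opposite strand. Larp7 encodes a protein that binds and stabilises the 7SK RNA. The Larp7 start is 7.54 kb from Mir367, and the nearest end of Zgrf1 is 0.047 kb from that start. The miR-183 hairpins lie inside the lncRNA gene Mirc35hg, whose start is 4.39 kb from Mir183 and 8.13 kb from Mir182. These GRCm38 positions were not carried over to mm9, so no bin below is assigned to a hairpin or a gene start.

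The mature sequences show what arms of the miR-290 and miR-302 clusters share. They are RefSeq's, written 5′ to 3′ with the seed in capitals. The seed AAGUGCU stands in 5 of the 1679 mature names of the table, 3 from the miR-290 and 2 from the miR-302 cluster. The table gave no sequence for miR-292a-3p or miR-302a-3p, so these counts leave both arms out and may be incomplete.
miR-291a-3p: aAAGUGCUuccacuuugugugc
miR-294-3p: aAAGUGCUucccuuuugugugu
miR-295-3p: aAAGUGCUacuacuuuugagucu
miR-302b-3p: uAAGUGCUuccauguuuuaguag
miR-302d-3p: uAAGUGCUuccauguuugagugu
The other printed 3p arms have other seeds over bases 2 to 8 and are shown for comparison. Bases 2 to 7 are AAGUGC in 8 names of the table, which include miR-290a-3p and miR-291b-3p. The seeds of miR-292a-3p and miR-302a-3p were not compared, since their sequences were missing. The seed of miR-367-3p stands in 6 names of the table.
miR-290a-3p: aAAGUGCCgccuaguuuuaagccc
miR-291b-3p: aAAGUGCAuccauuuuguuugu
miR-293-3p: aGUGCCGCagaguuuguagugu
miR-302c-3p: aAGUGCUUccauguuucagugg
miR-367-3p: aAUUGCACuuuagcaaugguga
The 5p arms of the miR-183 cluster are shown because both marks differed in that window. Each has a seed of its own within the cluster, and that of miR-96-5p stands in 2 names of the table.
miR-183-5p: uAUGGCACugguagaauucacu
miR-96-5p: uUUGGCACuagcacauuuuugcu
miR-182-5p: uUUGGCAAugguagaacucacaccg

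The starts of both genes that overlap hairpins are rich in CG dinucleotides, which H3K4me3 and Polycomb domains of ES cells are known to follow. They are printed for that reason, 5′ to 3′ on the minus strand with each CG in capitals (a motif that reads the same on both strands). The Mirc35hg start (RefSeq, GRCm38.p6 chr6:30174076-30174375) holds 35 CG, more than 93.0% of 32851 promoters of the same length. The Larp7 start (chr3:127553300-127553599) holds 30, more than 88.3% of them. The median promoter holds 7, and 94.6% hold at least 1.
Mirc35hg: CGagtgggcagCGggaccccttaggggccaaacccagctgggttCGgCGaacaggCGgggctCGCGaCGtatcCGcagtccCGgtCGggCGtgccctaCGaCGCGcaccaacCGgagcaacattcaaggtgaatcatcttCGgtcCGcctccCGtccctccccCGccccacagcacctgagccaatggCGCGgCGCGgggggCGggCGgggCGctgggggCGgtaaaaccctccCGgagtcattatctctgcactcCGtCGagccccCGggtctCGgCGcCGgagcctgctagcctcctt
Larp7: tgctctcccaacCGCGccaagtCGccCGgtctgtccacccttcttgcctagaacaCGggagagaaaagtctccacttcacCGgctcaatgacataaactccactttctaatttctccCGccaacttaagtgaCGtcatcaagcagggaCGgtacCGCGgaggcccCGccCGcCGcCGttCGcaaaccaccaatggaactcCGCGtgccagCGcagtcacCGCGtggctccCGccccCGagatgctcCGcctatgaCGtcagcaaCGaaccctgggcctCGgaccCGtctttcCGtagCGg

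The miR-290 window had the most H3K4me3 of the 3 windows in undifferentiated XT67E1, and less of it in both differentiated states. It held 50.1 RPM (108 reads) in EBs, 44.1 RPM (95 reads) after atRA and 139.6 RPM (301 reads) in undifferentiated cells. These levels were 9.92, 8.74 and 27.6 times the mean autosomal window of 12 kb, so the mark was lower but far above the mean in each differentiated state. The log2 ratio to undifferentiated cells was -1.47 in EBs (-1.81 to -1.16) and -1.65 after atRA (-2.01 to -1.32), and both share the undifferentiated library. A window or bin was called when it had at least 20 reads in the 2 libraries, differed by 2-fold or more and had an interval that excludes equality. By this rule 2.33% of autosomal 12 kb windows were called lower in EBs and 3.33% after atRA, and the miR-290 window was called lower in both. EBs against atRA gave 0.18 (-0.23 to 0.60), an interval that includes equality.

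The miR-290 signal was a narrow peak. The bin from 3218001 to 3220000 held 79 reads in EBs, 58 after atRA and 206 in undifferentiated cells, or 73.1%, 61.1% and 68.4% of the window. Its highest kilobase, from 3218001 to 3219000, held 49, 33 and 124 reads in the same order. The peak was in the same bin in all 3 states and lower in EBs (log2 -1.37, -1.78 to -1.002) and after atRA (-1.81, -2.27 to -1.40). The next bin, from 3220001, held 13, 20 and 56 reads, with log2 ratios of -2.03 (-3.10 to -1.22) and -1.44 (-2.30 to -0.72). Upstream, the bin from 3214001 held 1, 5 and 16 reads and was called lower after atRA (-1.50, -3.48 to -0.16). It was lower in EBs too (-3.09, -9.39 to -1.31), with too few reads for a call. The bin from 3212001 went the other way in EBs, with 8, 2 and 2 reads, too few for a call.

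Lower H3K4me3 was common among marked bins of these libraries. Of autosomal 2 kb bins with enough reads, 12.8% were called lower and 2.88% higher in EBs, with a median log2 ratio of -0.33. After atRA 12.2% were lower and 4.76% higher, with a median of -0.06. Of the 24 bins of the 3 windows 6 had enough reads in EBs, of which 4 were called lower, and 7 after atRA, of which 5 were lower. In both cases 0 were higher. Bins passed the read minimum mainly through the undifferentiated library, so these counts add nothing to the values. The EB ratio of the miR-290 peak bin was above that of 7.61% of autosomal bins, and its atRA ratio above that of 5.35%. For EBs against atRA 0 of 5 bins were called, where 2.45% of autosomal bins were higher and 5.20% lower.

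**Figure D1:**
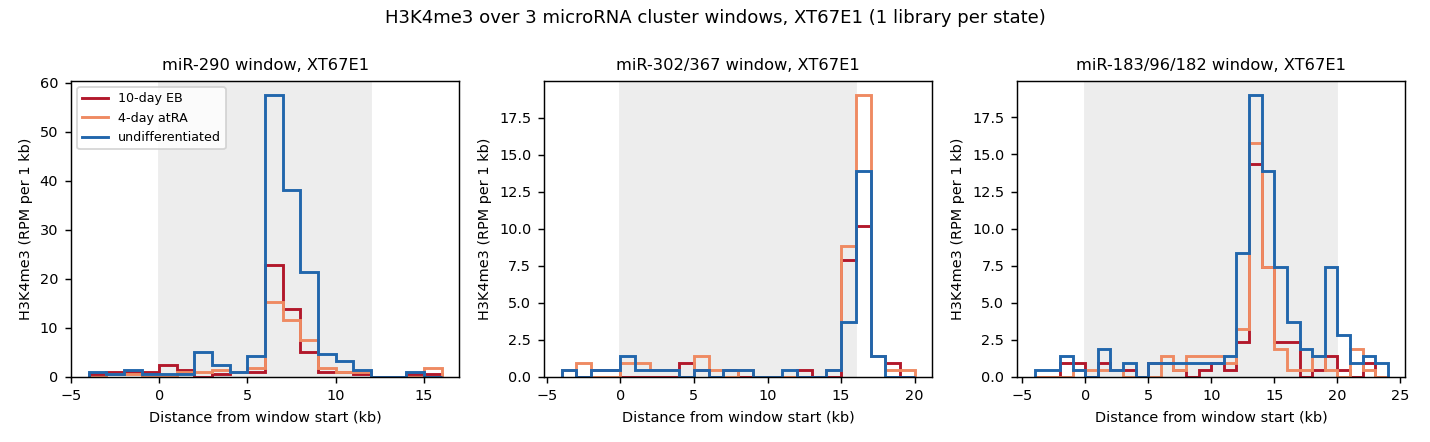
H3K4me3 in XT67E1, in RPM per 1 kb (y), against the distance from the window start in kb (x), with a line each for EBs (red), atRA (orange) and undifferentiated cells (blue) and the window in grey. The miR-290 peak reaches 22.7 RPM in EBs, 15.3 after atRA and 57.5 in undifferentiated cells, and the peak of the miR-302 panel crosses the right edge of the window.

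H3K27me3 in the miR-290 window was below the autosomal mean in every library but that of E14 EBs. XT67E1 had 3.90 RPM in EBs, 2.00 after atRA and 2.62 in undifferentiated cells (31, 16 and 21 reads). LF2 had 2.55 RPM in EBs and 2.52 in undifferentiated cells (11 reads each). E14 had 8.60 RPM in EBs and 2.49 in undifferentiated cells (38 and 11 reads). E14 EBs were thus at 1.70 times the mean window, and the other libraries at 0.395 to 0.772 times. The E14 log2 ratio was 1.70 (0.79 to 2.90) and was called higher, as were 1.72% of autosomal windows of this length. XT67E1 gave 0.55 in EBs (-0.27 to 1.45) and -0.37 after atRA (-1.43 to 0.62), and LF2 gave 0.02 (-1.33 to 1.36). The mean over the 3 lines was 0.76 ± 0.86 (SD, n = 3), and 0.29 without E14.

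The highest bin of E14 EBs, with 47.4% of the window's reads, was the one that carried the H3K4me3 peak in XT67E1. From 3218001 to 3220000 E14 had 18 reads in EBs and 2 in undifferentiated cells (log2 2.66, 1.10 to 6.32), and the bin was called higher. XT67E1 had 9 reads there in EBs, 2 after atRA and 5 in undifferentiated cells, and LF2 had 4 in EBs and 1 in undifferentiated cells. That bin was also the highest of XT67E1 EBs and, with a tie, of LF2 EBs. In the libraries other than E14 EBs the highest H3K27me3 bin of the window held at most 9 reads. H3K4me3 of E14 was not analysed here, so the marks cannot be set side by side in that line.

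The miR-302 window held little of either mark, apart from an H3K4me3 peak that crossed its right edge. Its H3K4me3 level was 10.2 RPM in EBs, 14.4 after atRA and 8.81 in undifferentiated cells (22, 31 and 19 reads). Of these reads 17, 20 and 9 lay in the last bin, from 127254001 to 127256000. The other 14 kb held 5, 11 and 10 reads, which is 0.385, 0.849 and 0.771 times the autosomal mean. A level above the mean was thus not detectable there at this depth, in undifferentiated cells as well.

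The edge peak was higher outside the window than inside it. The bin from 127256001 to 127258000 held 25 reads in EBs, 44 after atRA and 33 in undifferentiated cells. Over the 4 kb across the edge, a stretch chosen after its values were seen, the reads were 42, 64 and 42. The log2 ratio was 0.00 in EBs (-0.65 to 0.65) and 0.60 after atRA (0.03 to 1.21), while in the same libraries the miR-290 peak was lower. Whether the edge peak is the Larp7 start was not tested. The whole window gave 0.20 in EBs (-0.74 to 1.18), 0.68 after atRA (-0.16 to 1.61) and -0.48 for EBs against atRA (-1.35 to 0.34).

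H3K27me3 in the miR-302 window was below the autosomal mean in all 7 libraries, at 0.334 to 0.910 times. These levels were above those of 7.89% (XT67E1 after atRA) to 53.9% (undifferentiated E14) of autosomal windows of this length. XT67E1 had 5.03 RPM in EBs, 2.25 after atRA and 4.11 in undifferentiated cells (40, 18 and 33 reads). LF2 had 2.78 RPM in EBs and 4.12 in undifferentiated cells (12 and 18 reads), and E14 had 5.43 and 6.12 RPM (24 and 27 reads). For XT67E1 the EB ratio was 0.28 (-0.41 to 1.0004). LF2 gave -0.53 (-1.75 to 0.57) and E14 -0.17 (-1.03 to 0.68), and the mean over the lines was -0.14 ± 0.41 (SD, n = 3). After atRA the ratio was -0.84 (-1.79 to -0.003), under 2-fold. EBs against atRA gave 1.12 (0.33 to 2.05) and were called higher, as were 3.96% of autosomal windows of this length. The value was under 2-fold with scaling to background reads (0.85), in the window widened by 2 kb (0.85) and with a pseudocount of 5 (0.98). No bin of this window reached 20 reads in a comparison of H3K27me3, and the highest bin of each library held 4 to 9 reads.

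**Figure D2:**
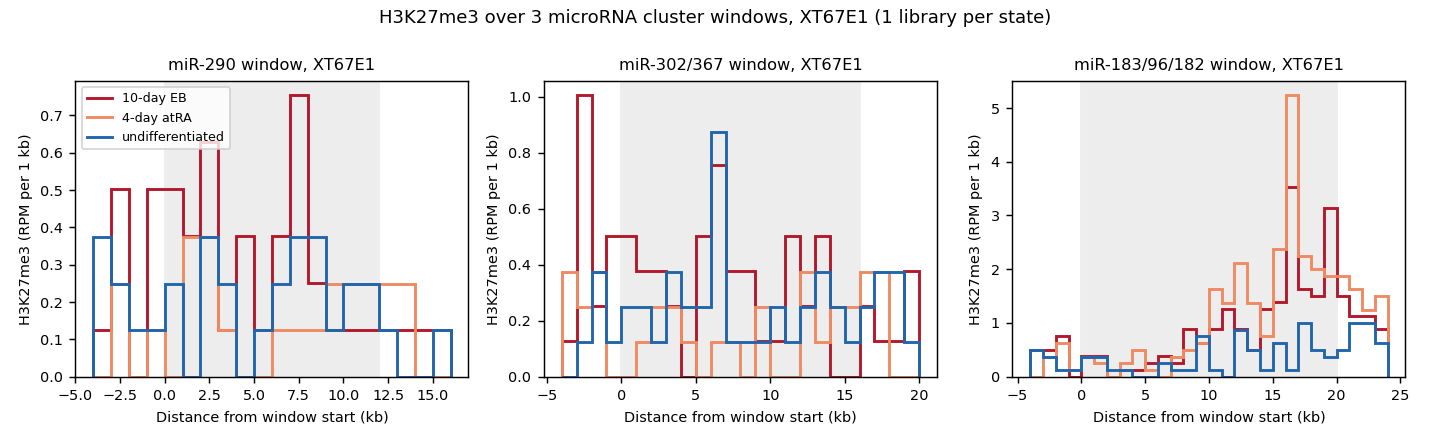
H3K27me3 in XT67E1, in RPM per 1 kb (y, own scale in each panel), against the distance from the window start in kb (x), with a line each for EBs (red), atRA (orange) and undifferentiated cells (blue) and the window in grey. In the right 10 kb of the miR-183 window the reads add up to 127 in EBs, 168 after atRA and 34 in undifferentiated cells.

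The miR-183 window had less H3K4me3 and more H3K27me3 in the differentiated states. H3K4me3 was 36.6 RPM in EBs, 39.5 after atRA and 73.3 in undifferentiated cells (79, 85 and 158 reads), or 4.36, 4.70 and 8.72 times the mean autosomal window of 20 kb. The log2 ratio was -0.99 in EBs (-1.41 to -0.60) and -0.88 after atRA (-1.29 to -0.50), both short of 2-fold. The EB value passed 2-fold under 4 of 7 alternatives, at -1.12 with scaling to background reads and at -1.02 to -1.01 with own chromosome scaling, overlapping intervals or a window widened by 2 kb. Under the reported scaling 1.38% of autosomal windows of this length were called lower. EBs against atRA gave -0.11 (-0.57 to 0.35).

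The bins called lower in H3K4me3 lay to the right of the main peak. The highest kilobase, from 30123001 to 30124000, held 31 reads in EBs, 34 after atRA and 41 in undifferentiated cells. Its log2 ratio was -0.39 in EBs (-1.13 to 0.31) and -0.26 after atRA (-0.97 to 0.42), so no difference was detectable there at this depth. The bin around it, from 30122001, held 36, 41 and 59 reads. The bin from 30124001 held 21, 20 and 46 and was called lower in EBs (-1.10, -1.95 to -0.36) and after atRA (-1.16, -2.04 to -0.41). The bin from 30128001 held 4, 4 and 19 and was called lower in both. Most of its undifferentiated reads, 16, lay in the kilobase from 30129001, which held 3 in EBs and 1 after atRA.

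H3K27me3 in the miR-183 window was higher in every differentiated library than in the undifferentiated library of its line. XT67E1 had 19.4 RPM in EBs, 24.0 after atRA and 6.48 in undifferentiated cells (154, 192 and 52 reads). LF2 had 30.9 RPM in EBs and 11.2 in undifferentiated cells (133 and 49 reads), and E14 had 71.0 and 16.5 RPM (314 and 73 reads). The lowest differentiated level, in XT67E1 EBs, was above the highest undifferentiated level, in E14. EBs were 2.99-fold higher in XT67E1 (2.17 to 4.17), and LF2 EBs 2.75-fold (1.97 to 3.90). E14 EBs were 4.29-fold higher (3.32 to 5.62), and XT67E1 after atRA 3.70-fold (2.71 to 5.12). EBs against atRA gave a log2 ratio of -0.31 (-0.62 to 0.01).

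Few autosomal windows of 20 kb were called higher in these comparisons: 0.893% in XT67E1 EBs, 0.265% after atRA, 3.08% in LF2 EBs and 0.806% in E14 EBs. The mean log2 ratio of EBs over the 3 lines was 1.70 ± 0.34 (SD, n = 3), above 0 in 3 of 3 lines. Of the 114890 autosomal windows with enough reads in each line, 27 were called higher in all of them, or 0.0235%. Since the window was chosen with these values known, this gives its place among windows and is no test. On chromosome 6 as a whole the read density in EBs was 0.996, 0.916 and 0.999 times that of undifferentiated cells in XT67E1, LF2 and E14.

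**Figure D3:**
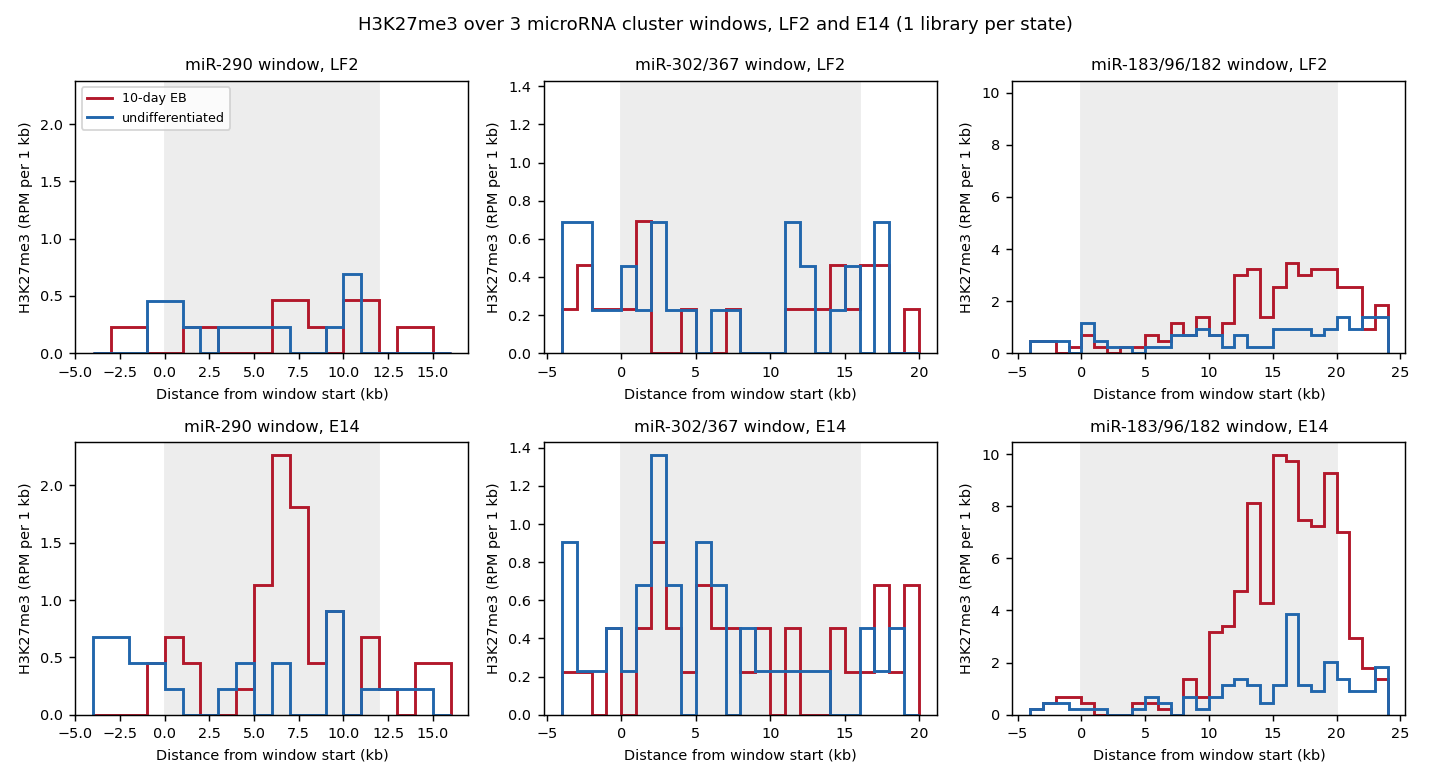
H3K27me3 in LF2 (top row) and E14 (bottom row), in RPM per 1 kb (y, shared by both lines of a window), against the distance from the window start in kb (x), with EBs in red, undifferentiated cells in blue and the window in grey. Over the right 10 kb of the miR-183 window the lines add up to 25.1 RPM in EBs and 6.42 in undifferentiated cells in LF2, and to 67.4 and 13.8 RPM in E14.

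The higher H3K27me3 lay in the right 10 kb of the miR-183 window, a division made after the profiles were seen. From 30120001 to 30130000 XT67E1 had 127 reads in EBs, 168 after atRA and 34 in undifferentiated cells. LF2 had 108 in EBs and 28 in undifferentiated cells, and E14 had 298 and 61. The log2 ratios were 1.88 (1.36 to 2.50) in XT67E1 EBs, 2.27 (1.77 to 2.88) after atRA, 1.93 (1.35 to 2.62) in LF2 EBs and 2.27 (1.88 to 2.71) in E14 EBs. In the left 10 kb they ran from 0.26 to 0.57, and all 4 intervals include equality. Undifferentiated cells were at 0.987 times the autosomal mean in the right 10 kb in XT67E1, 1.49 times in LF2 and 3.22 times in E14.

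Within this stretch the bin from 30126001 was the highest in the differentiated libraries, with a tie in LF2 EBs. It lies beside the main H3K4me3 peak of XT67E1 and not on it. It held 41 reads in EBs, 60 after atRA and 9 in undifferentiated XT67E1, where the bin from 30122001 was higher. E14 had 76 in EBs and 22 in undifferentiated cells, and LF2 had 28 and 8, where the bin from 30128001 also held 28 in EBs. Neighbouring bins were close in E14 EBs too, with 63 reads from 30124001 and 73 from 30128001. The bin of the XT67E1 H3K4me3 peak, from 30122001, differed between lines in H3K27me3, and H3K4me3 of LF2 and E14 was not analysed here. XT67E1 had 11 reads there in EBs, 28 after atRA and 11 in undifferentiated cells, so EBs gave 0.01 (-1.33 to 1.36) against undifferentiated cells and were called lower than atRA (-1.26, -2.49 to -0.29). LF2 had 27 in EBs and 4 in undifferentiated cells (2.50, 1.25 to 4.75), and E14 had 57 and 11 (2.27, 1.42 to 3.45). After atRA the bin from 30120001 held 24 reads, against 1 in undifferentiated cells.

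The domain ran past the window. The bin from 30130001 to 30132000 held 21 reads in EBs, 28 after atRA and 12 in undifferentiated XT67E1, 22 in EBs and 10 in undifferentiated LF2, and 44 and 10 in E14. In the next bin, from 30132001, the reads were 16, 22 and 13 in XT67E1, 12 and 12 in LF2 and 14 and 12 in E14.

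Of the 24 window bins, 4 had enough H3K27me3 reads in XT67E1 EBs, 5 after atRA, 4 in LF2 EBs and 6 in E14 EBs. In the same order, 3, 5, 4 and 6 of these were called higher. All bins called higher were in the miR-183 window except the miR-290 bin of E14. Of autosomal bins with enough reads, 2.15% were higher and 4.15% lower in XT67E1 EBs, and 3.66% and 2.13% after atRA. In LF2 EBs 1.98% were higher and 12.5% lower, and in E14 EBs 9.11% and 6.07%. For EBs against atRA 1 of 6 bins with enough reads was called lower, where 5.16% of autosomal bins were lower and 1.68% higher. Bins passed the read minimum mainly through the differentiated library, so these counts too add nothing to the values.

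Both marks can be set side by side in XT67E1. The bins from 30124001 and 30128001 were called lower in H3K4me3 and higher in H3K27me3, in EBs and after atRA alike. H3K27me3 reads in the first were 21 in EBs, 25 after atRA and 6 in undifferentiated cells, and in the second 37, 31 and 7. In each state 3 window bins had enough reads of both marks, and 2 of these had this combination. The other, from 30122001, was not called lower in H3K4me3. Among autosomal bins with enough reads of both marks, 5.12% of 3222 had this combination in EBs and 6.05% of 3026 after atRA. Of those bins that were lower in H3K4me3, 49.1% of 336 were also higher in H3K27me3 in EBs and 62.7% of 292 after atRA. The miR-290 peak bins, also lower in H3K4me3, had too few H3K27me3 reads for a call, 12 in EBs, 5 after atRA and 9 in undifferentiated cells over both bins.

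The lines differed in H3K27me3 level over the miR-183 window in both states, with E14 highest. XT67E1 against E14 gave a log2 ratio of -1.87 in EBs (-2.16 to -1.59) and -1.34 in undifferentiated cells (-1.89 to -0.82). LF2 against E14 gave -1.20 (-1.51 to -0.91) and -0.55 (-1.11 to -0.02). In the miR-290 window XT67E1 and LF2 were below E14 in EBs, at -1.13 (-1.87 to -0.42) and -1.66 (-2.87 to -0.75), and at 0.01 (-1.05 to 1.27) and 0.02 (-1.33 to 1.36) in undifferentiated cells. In the miR-302 window all 4 intervals include equality. Sex, line and library cannot be told apart here.

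**Figure D4:**
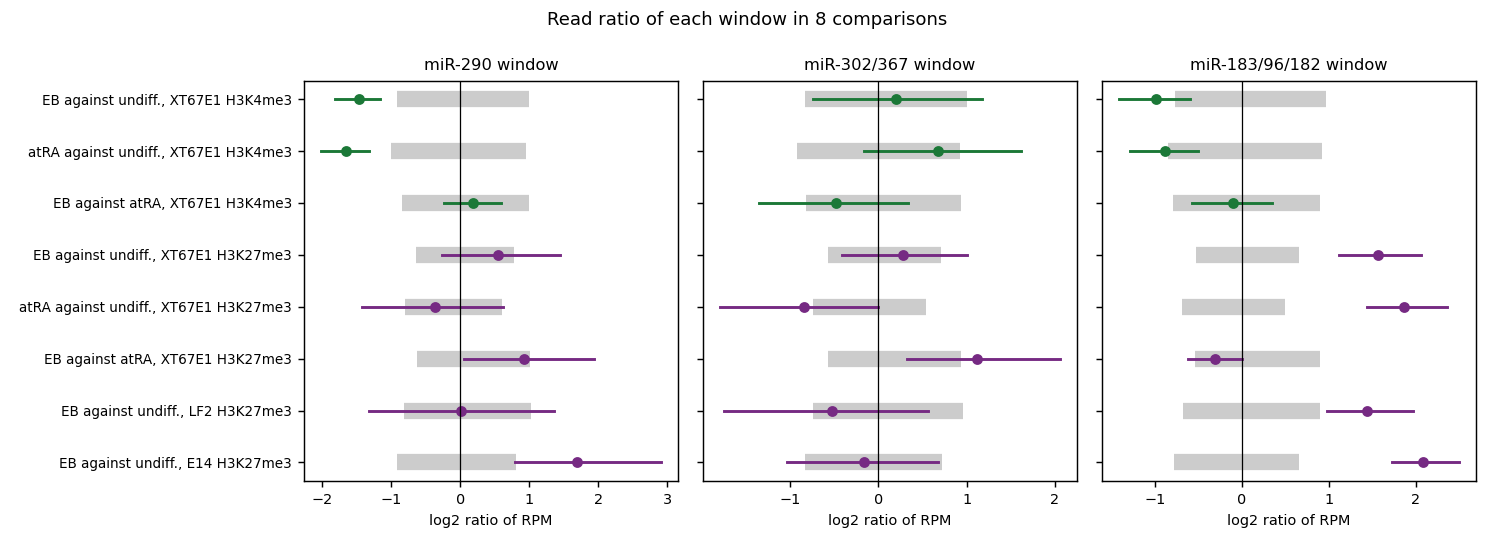
Log2 ratio of RPM (x) of each window in 8 comparisons (rows), as a point with its 95% counting interval, green for H3K4me3 and purple for H3K27me3, with grey bars from the 5th to the 95th percentile of autosomal windows of the same length. The H3K27me3 points of the miR-183 window against undifferentiated cells lie at 1.44 to 2.09, right of the grey bars. The H3K4me3 points of the miR-290 window against undifferentiated cells lie at -1.65 and -1.47, left of them. Also outside the bars are the H3K4me3 points of miR-183 against undifferentiated cells (-0.99 and -0.88) and the E14 point of miR-290 (1.70). So are the miR-302 H3K27me3 points of atRA against undifferentiated cells (-0.84) and EBs against atRA (1.12).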

How the data were processed

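The authors deposited read positions as 200 bp intervals on mm9, per the submitters' processing notes and the file contents. The files have no value column and no strand, and no interval is repeated within a file. Libraries of a set hold equal read numbers. The sources used here name no aligner, filter or read extension.

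Midpoints were counted in bins and windows with Python 3.11.15, numpy 2.4.6, pandas 2.3.3 and scipy 1.17.1. Log2 ratios are of reads plus a pseudocount of 1, scaled to autosomal reads, which understates differences at low counts. Fold values and the bracketed intervals use reads without a pseudocount. Background windows tile the 19 autosomes. Alternatives were other scalings, a pseudocount of 5, overlapping intervals, windows widened by 2 kb, 1 kb bins, no read minimum and leaving out each line. Bins were described singly when highest in a window or called. The members, windows and lists were chosen with earlier results of these data known. Marker genes and microRNA pathway genes were not placed, since no mm9 annotation was used here.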

Additional observations from a re-analysis of the deposited data

Results flagged for a closer look

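H3K27me3 in the miR-302 window lay in opposite directions between lines for EBs against undifferentiated cells. The log2 ratio was 0.28 for XT67E1, -0.53 for LF2 and -0.17 for E14. The difference was not tested, each value rests on 1 library per state, and all 3 counting intervals include 0.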

How the results depend on the processing

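All 168 recomputed log2 ratios of single comparisons stayed within the counting interval of the reported value. Scaling to background reads moved all values of a comparison by -0.27 to 0.14. Under the 7 alternatives 2 window calls changed. The EB value of H3K4me3 in the miR-183 window, -0.99, passed 2-fold with background scaling (-1.12), own chromosome scaling (-1.02), overlapping intervals (-1.01) and widening by 2 kb (-1.01). That of H3K27me3 in the miR-302 window for EBs against atRA, 1.12, was under 2-fold with background scaling (0.85), widening (0.85) and a pseudocount of 5 (0.98). In 1 kb bins, where fewer bins reach 20 reads, the H3K27me3 calls were 3 after atRA in XT67E1 (5 in 2 kb bins), 0 for EBs against atRA (1 in 2 kb bins) and 0 in LF2 EBs (4 in 2 kb bins). Leaving out each line, the mean EB log2 ratio of H3K27me3 ran from 0.29 (without E14) to 1.13 (without LF2) for miR-290, from -0.35 (without XT67E1) to 0.06 (without LF2) for miR-302 and from 1.50 (without E14) to 1.82 (without LF2) for miR-183. These EB ratios were taken within each line, so their mean is paired by line. No paired analysis was possible beyond it because each line has 1 library per state, and the means carry no test since the windows were chosen with these values known. With 11 to 40 H3K27me3 reads per library in the miR-290 and miR-302 windows, intervals there are wide.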
